A study of Homo sapiens with 12 samples.

Results

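The change with time of the PTD-DRBD effect was followed gene by gene in H1299, an established human cell line from a lung carcinoma of the non-small cell type, grown in DMEM with 10% FCS. It is the difference of 2 differences in log2 signal, PTD-DRBD minus control at 24 h less PTD-DRBD minus control at 12 h, and it uses 8 of the 12 arrays of the series. The groups, with 2 arrays each, were PTD-DRBD carrying GAPDH siRNA at 12 h and its control at 12 h, and PTD-DRBD carrying GAPDH siRNA at 24 h and its control at 24 h. The control cells received PBS buffer. All cells were exposed for 6 h, washed, and harvested at the stated time. The other 4 arrays, of lipofection with GAPDH siRNA at both times, entered the estimate of the spread. No array of the carrier alone or of a non-targeting siRNA was analysed here, so effects of the carrier, of the siRNA and of the loss of GAPDH cannot be told apart. H1299 is 1 cell line, and the labels do not say whether the paired arrays of each group stem from different dishes. The p-values therefore reflect the spread of these samples alone, and that spread may be technical.

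In the PTD-DRBD carrier, a domain that binds double-stranded RNA and masks its charge is joined to a peptide transduction domain, which takes cargo across cell membranes. An siRNA guides Argonaute to a matching mRNA, which is then cut. Treated cells can also show short-lived stress or signalling responses, and unstimulated cultures drift as nutrients and serum factors are used up, so a treatment effect can change with time through movement of the treated cells, of the control cells, or of both.

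Between 17990 and 19097 of 48701 probes were detected per array, replicate arrays correlated at 0.997 to 0.998 over genes, and median raw signals lay between 61.3 and 73.1. Signals are normalized log2 intensities, and tests are of limma over 12117 genes, each by 1 probe, with adjusted p under 0.05 called as passed. Of 19 markers of other cell types, 18 had a probe, 2 were detected on all 12 arrays (PTPRC and CD68) and 4 were kept for the test. The summed log2 signal of these 4 was 11.81 to 11.85 with PTD-DRBD and 11.69 to 11.79 in control cells at 12 h, and 12.17 to 12.18 with PTD-DRBD and 12.06 to 12.18 in control cells at 24 h. This sum was nearly all CD68, with group means of 11.69 to 12.14. It could not show a change in LYZ, PECAM1 or PTPRC, whose group means were 4.94 to 5.49. None of the 4 passed in the change with time. The line expressed VIM and CDH2, at median raw signals of 33700 and 3460, as well as KRT8 and KRT18, at 446 and 12800. Of the epithelial markers, CDH1 was detected on 11 of the 12 arrays, EPCAM on 1 and KRT19 on 0. As these are bulk samples, a change in the share of cells that respond and a change in RNA per cell cannot be told apart.

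GAPDH, the glycolytic enzyme targeted by the siRNA, had log2 signals of 11.75 and 11.62 with PTD-DRBD at 12 h, against 15.02 and 15.05 in control cells. At 24 h it had 12.27 and 12.25 with PTD-DRBD, against 15.09 and 15.11 in control cells. The treated and control arrays lay far apart at both times, and both treated arrays were higher at 24 h than at 12 h. By this probe the level was 9.77% of control at 12 h and 14% of control at 24 h. The change in log2 effect was 0.51 (SE 0.11, limma adjusted p = 0.0645), which did not pass, although the 24 h minus 12 h difference of the PTD-DRBD arrays alone did (0.58, SE 0.08, limma adjusted p = 0.000994). The other probes for GAPDH gave changes of 0.59 and 0.50. In the authors' deposited table the signed fold by the chosen probe was −9.5784 at 12 h and −7.415 at 24 h. By the other probes it was −15.418 and −16.1839 at 12 h, and −11.3642 and −12.757 at 24 h. The remaining level thus depended on the probe.

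The PTD-DRBD effect changed with time for 44 genes, 0.363% of those tested, with 15 effects higher at 24 h (0.124%) and 29 lower (0.239%). Among the genes that passed were TPPP3, KRT34, FOSB and EMP1, high with PTD-DRBD at 12 h and not at 24 h, HMGCS1 and ACSS2 of lipid metabolism, whose effects turned from a rise into a fall, and NFKB2 and CIART, whose effects turned from a fall into a rise. The changes that passed were between 0.57 and 1.68 in size on the log2 scale, and 35 were at least 1.6-fold. The effects of single treated arrays did not overlap between the times for any of the 44, which was also true of 61.9% of all genes. Fitted over all 19631 kept probes, with or without a gene name, 21 probes passed. The median change over all genes was −0.01, and 2240 genes had an unadjusted p under 0.05. The number that passed was 18 or 12 without the first or second control array at 12 h, 17 without the second PTD-DRBD array at 12 h, and 16 or 12 without the first or second control array at 24 h. It also depended on which PTD-DRBD array at 24 h was left out. Every one of the 44 kept its direction in each of these fits, which their choice by large changes on the same arrays favoured.

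**Figure D1:**
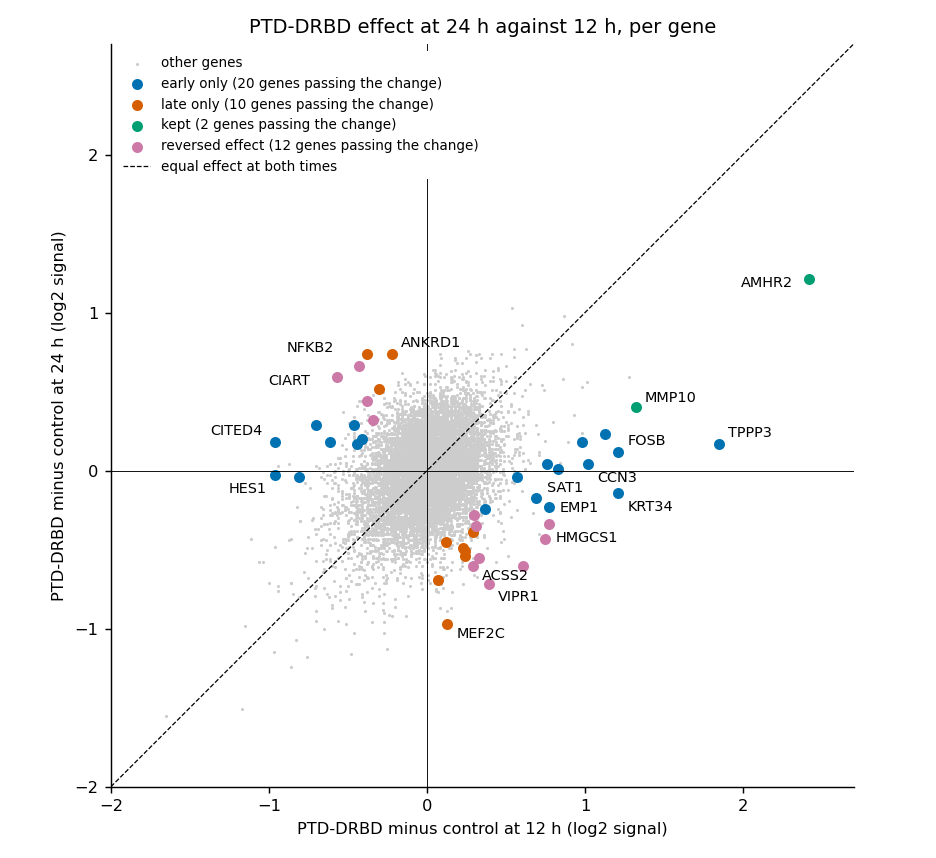
PTD-DRBD minus control in log2 signal at 12 h (x axis) and at 24 h (y axis), 1 point per gene, with the 44 genes whose effect changed coloured by class and GAPDH, at −3.36 and −2.84, left off the scale. TPPP3, KRT34 and FOSB lie far right near the horizontal axis, AMHR2 and MMP10 stay above it, and HMGCS1, ACSS2 and VIPR1 lie below it.

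Genes were sorted by whether the effect passed at 12 h, at 24 h or at both. At 12 h 955 genes passed (7.88%), 414 higher (3.42%) and 541 lower (4.46%) with PTD-DRBD, and at 24 h 1699 passed (14%), 711 higher (5.87%) and 988 lower (8.15%). The early only class held 617 genes (5.09%), the late only class 1361 (11.2%), and the kept class, with the same sign at both times, 323 (2.67%). The reversed class, with opposite signs that each passed, held 15 (0.124%). A pass at 1 time alone rarely came with a measured change between the times, since 20 of the 617 early only genes and 10 of the 1361 late only genes passed the test of the change. Early only genes had the same sign at both times in 74.4% of cases, with a median size of 0.42 at 12 h and 0.14 at 24 h on the log2 scale. Late only genes had the same sign in 73.8%, with a median size of 0.13 at 12 h and 0.39 at 24 h. Of the kept genes 2 passed the test of the change, of the reversed genes 12, and of the 9801 genes that passed at neither time 0. Over all genes, the effects at 12 h and 24 h correlated at r = 0.37 (Pearson, 12117 genes, which are not independent replicates and share arrays within each time).

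The class sizes rested on single arrays. The early only class held 176 and 219 genes without the first and second PTD-DRBD array at 12 h, and 193 and 173 without the first and second control array at 12 h, along with 309, 437, 317 and 314 passing at 12 h in the same order. The late only class held 78 genes without the second PTD-DRBD array at 24 h and 306 and 209 without the first and second control array at 24 h, along with 179, 466 and 355 passing at 24 h. The kept class held 99 to 220 genes and the reversed class 2 to 16 with 1 array left out. For the kept class the counts were 122 and 213 without the first and second PTD-DRBD array at 12 h, 118 and 138 without the first and second control array at 12 h, 99 without the second PTD-DRBD array at 24 h, and 154 and 141 without the first and second control array at 24 h. For the reversed class they were 5 without the second PTD-DRBD array at 12 h, 6 and 3 without the first and second control array at 12 h, 2 without the second PTD-DRBD array at 24 h, and 6 and 5 without the first and second control array at 24 h.

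The early only genes that changed included several with almost no signal in control cells. Among the PTD-DRBD and control groups, TPPP3, KRT34, CPA4 and FOSB met the detection filter only through PTD-DRBD at 12 h. Their tests are therefore not independent of that high signal. TPPP3, a relative of a tubulin polymerization-promoting protein, had log2 signals of 6.57 and 6.56 with PTD-DRBD at 12 h, against 4.63 and 4.80 in control cells. At 24 h it had 4.92 and 4.55 with PTD-DRBD, against 4.55 and 4.57 in control cells. Only the PTD-DRBD arrays at 12 h were above detection, where the gene was at least 2.83-fold higher than in control cells, and the change passed (limma adjusted p = 0.00267). A second TPPP3 probe was detected on 0 of the 8 arrays. KRT34, a hair-type keratin, had 6.22 and 6.17 with PTD-DRBD at 12 h, against 4.96 and 5.00 in control cells, and 4.83 and 4.71 with PTD-DRBD at 24 h, against 5.03 and 4.79 in control cells. It was at least 2.2-fold higher with PTD-DRBD at 12 h, while the arrays of the groups overlapped at 24 h (limma adjusted p of the change = 0.00267). CPA4, a carboxypeptidase, was detected only on the PTD-DRBD arrays at 12 h, at 5.96 and 5.65, against 4.70 and 4.65 in control cells, at least 1.68-fold higher (limma adjusted p of the change = 0.0253).

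FOSB, a subunit of the AP-1 transcription factor and an immediate early gene, had 6.11 and 6.22 with PTD-DRBD at 12 h, against 5.06 and 4.85 in control cells, 2.32-fold higher, with 1 of the 2 control arrays above detection. At 24 h it was below detection on all arrays, at 4.71 and 4.87 with PTD-DRBD and 4.71 and 4.63 in control cells, and the change passed (limma adjusted p = 0.00579). CCN3, a matricellular protein, had 8.09 and 8.32 with PTD-DRBD at 12 h, against 7.30 and 7.08 in control cells, and 7.35 and 7.21 with PTD-DRBD at 24 h, against 7.25 and 7.22 in control cells. Its effect was thus 1.02 at 12 h and 0.04 at 24 h, a change of −0.98 (SE 0.15, limma adjusted p = 0.0214). FOSB passed with each of the 8 arrays left out in turn, CCN3 with 3 of them.

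EMP1, a membrane protein of epithelial cells, had log2 signals of 11.81 and 11.95 with PTD-DRBD at 12 h, against 11.13 and 11.10 in control cells. At 24 h it had 11.32 and 11.27 with PTD-DRBD, against 11.52 and 11.52 in control cells. Treated cells were above control cells at 12 h and below them at 24 h, with no overlap at either time, the effect at 24 h did not pass (−0.23, limma adjusted p = 0.0643), and the change was −1.0 (SE 0.11, limma adjusted p = 0.00267). SAT1, the rate-limiting enzyme of polyamine breakdown, had 11.17 and 11.16 with PTD-DRBD at 12 h, against 10.47 and 10.48 in control cells, and 9.89 and 9.99 with PTD-DRBD at 24 h, against 10.18 and 10.03 in control cells. Its change was −0.86 (SE 0.11, limma adjusted p = 0.00694), and both arms were lower at 24 h than at 12 h, by −1.23 with PTD-DRBD and −0.36 in control cells. TENT5B, a cytoplasmic poly(A) polymerase, differed in that its PTD-DRBD arm had a difference of −0.05, which did not pass. It had 7.16 and 7.16 with PTD-DRBD at 12 h, against 6.21 and 6.16 in control cells, and 7.07 and 7.15 with PTD-DRBD at 24 h, against 7.05 and 6.81 in control cells (change −0.80, SE 0.14, limma adjusted p = 0.0427). The pass of TENT5B was lost whichever array was left out.

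In the opposite direction, CITED4, a transcriptional coactivator, had 9.39 and 9.44 with PTD-DRBD at 12 h, against 10.24 and 10.52 in control cells, and 9.99 and 10.27 with PTD-DRBD at 24 h, against 10.05 and 9.86 in control cells. The effect of −0.96 at 12 h was 0.18 at 24 h, a change of 1.15 (SE 0.17, limma adjusted p = 0.017). HES1, a Notch-induced repressor, had 6.79 and 6.71 with PTD-DRBD at 12 h, against 7.77 and 7.65 in control cells, and 7.30 and 7.37 with PTD-DRBD at 24 h, against 7.46 and 7.25 in control cells. It was 1.94-fold lower with PTD-DRBD at 12 h and overlapped control at 24 h, a change of 0.93 (SE 0.14, limma adjusted p = 0.0168). MXD3, a partner of MAX that opposes MYC, had changes in the same direction (1.0, SE 0.14, limma adjusted p = 0.0129), as had DYNC1I1, a dynein chain (0.79), the kinase gene ALPK2 (0.76), UBALD1 (0.74), UBALD2 (0.61) and the iron-binding protein gene PIR (0.61).

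**Figure D2:**
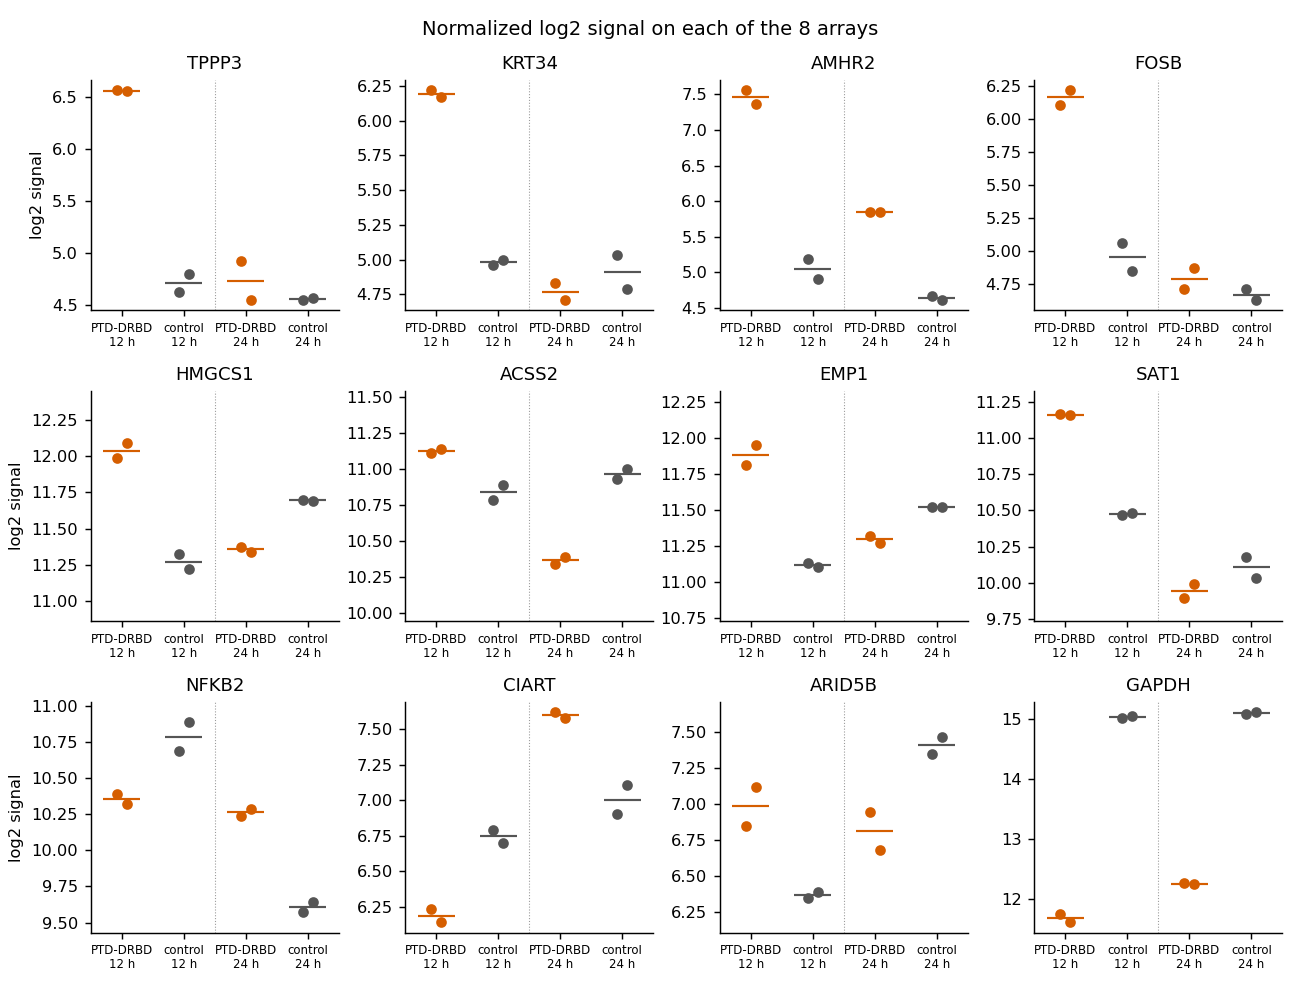
Normalized log2 signal of 12 genes on each of the 8 arrays (points) with the group mean (line), PTD-DRBD in orange and control in grey, 12 h left of 24 h, each panel on its own axis. TPPP3, KRT34 and FOSB stand high only with PTD-DRBD at 12 h, HMGCS1, ACSS2 and ARID5B are above control at 12 h and below it at 24 h, and NFKB2 and CIART do the opposite.

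The kept genes that nevertheless changed were both higher with PTD-DRBD. AMHR2, the receptor of anti-Müllerian hormone, had log2 signals of 7.56 and 7.37 with PTD-DRBD at 12 h, against 5.18 and 4.90 in control cells, and 5.84 and 5.85 with PTD-DRBD at 24 h, against 4.66 and 4.61 in control cells. It was 5.37-fold higher at 12 h and at least 1.77-fold higher at 24 h, when no control array detected it (limma adjusted p of the change = 0.00579). In the authors' deposited table its fold was 2.9175 at 12 h and 1.6345 at 24 h. MMP10, a matrix metalloproteinase, had 6.05 and 6.29 with PTD-DRBD at 12 h, against 4.81 and 4.89 in control cells, and 5.39 and 5.15 with PTD-DRBD at 24 h, against 4.83 and 4.92 in control cells. It was at least 2.16-fold higher at 12 h and at least 1.19-fold higher at 24 h (limma adjusted p of the change = 0.0253).

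Other genes held their effect at both times with no passing change. NOL12, a nucleolar RNA-binding protein, had 10.09 and 9.75 with PTD-DRBD at 12 h, against 11.53 and 11.62 in control cells, and 10.02 and 9.96 with PTD-DRBD at 24 h, against 11.61 and 11.46 in control cells. It was 3.14-fold lower at 12 h and 2.92-fold lower at 24 h, and the change of 0.10 (SE 0.16, limma adjusted p = 0.767) did not pass. GPR137B, a lysosomal membrane protein, was 2.24-fold lower at 12 h and 2.85-fold lower at 24 h, and DDIT3, a stress-induced transcription factor, was 1.82-fold higher at 12 h and 1.97-fold higher at 24 h. ZNF467, a zinc finger protein, shows a held effect on a moving base: its signals were 7.45 and 7.53 with PTD-DRBD at 12 h, against 8.64 and 8.65 in control cells, and 8.57 and 8.58 with PTD-DRBD at 24 h, against 9.56 and 9.55 in control cells. Its effect was −1.15 at 12 h and −0.98 at 24 h while both arms were higher at 24 h. Other kept genes named by size were LETM2 (0.92 at 12 h and 0.80 at 24 h), TCTN2 (0.63 and 0.77), CFAP144 (0.60 and 0.92), LRATD2 (−0.86 and −1.24) and GPR176 (−0.97 and −1.15). SPINT2, a protease inhibitor, was at least 2.31-fold higher with PTD-DRBD at 12 h and 1.5-fold higher at 24 h (limma adjusted p of the change = 0.0546). RNF217 was also among them (−0.83 and −1.07), but its other probes gave 0.25 and 0.03 at 12 h and 0.05 and −0.14 at 24 h.

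The reversed class included HMGCS1, the cytosolic synthase that commits acetoacetyl-CoA to the mevalonate pathway, on chromosome 5 (GRCh38, 43287470 to 43313412). It had log2 signals of 11.99 and 12.09 with PTD-DRBD at 12 h, against 11.32 and 11.22 in control cells, and 11.37 and 11.34 with PTD-DRBD at 24 h, against 11.70 and 11.69 in control cells. PTD-DRBD cells were 1.71-fold above control at 12 h and 1.27-fold below control at 24 h, without overlap at either time, and the change was −1.11 (SE 0.12, limma adjusted p = 0.00267). Over 8 fits with 1 array left out, the change of HMGCS1 stayed between −1.17 and −1.06 with adjusted p between 0.01 and 0.024. ACSS2, which makes acetyl-CoA from acetate, had 11.11 and 11.14 with PTD-DRBD at 12 h, against 10.78 and 10.89 in control cells, and 10.34 and 10.39 with PTD-DRBD at 24 h, against 10.93 and 11.00 in control cells (change −0.90, SE 0.11, limma adjusted p = 0.00579). A second, much dimmer ACSS2 probe gave a change of −0.09 and an effect of 0.14 at 24 h, so the probes disagree.

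ARID5B, a chromatin-associated DNA-binding protein, had 6.85 and 7.12 with PTD-DRBD at 12 h, against 6.35 and 6.39 in control cells, and 6.95 and 6.68 with PTD-DRBD at 24 h, against 7.35 and 7.47 in control cells. Its treated arrays overlapped between the times while control cells were higher at 24 h by 1.04 (change −1.21, SE 0.16, limma adjusted p = 0.012). PYROXD1, a flavin-dependent oxidoreductase (change −1.17), VIPR1, a receptor of vasoactive intestinal peptide (−1.11), and HEYL, a Notch-induced repressor (−0.87), went the same way, above control at 12 h and below it at 24 h. So did TICAM2, a Toll-like receptor adaptor (0.31 at 12 h and −0.35 at 24 h). ARFGAP2, a regulator of Golgi vesicle transport, was in the reversed class with effects of 0.49 at 12 h and −0.43 at 24 h, but the change itself did not pass (−0.92, SE 0.18, limma adjusted p = 0.0546). No member of the class had effects of at least 1.6-fold at both times.

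Late only genes that changed were mostly lower with PTD-DRBD at 24 h. MEF2C, a transcription factor of muscle and neurons, had 6.46 and 6.91 with PTD-DRBD at 12 h, against 6.55 and 6.56 in control cells, and 6.32 and 6.08 with PTD-DRBD at 24 h, against 7.09 and 7.25 in control cells. Its effect was 0.13 at 12 h and −0.97 at 24 h (change −1.10, SE 0.20, limma adjusted p = 0.0482), and it passed with 2 of the 8 arrays left out in turn. PRICKLE1, a planar polarity protein (−0.76), SLITRK5, a neuronal membrane protein (−0.75), and SLC2A14, a glucose transporter (−0.78), changed alike. SLC2A14 is nearly identical in sequence to SLC2A3, whose own change was −0.56 (limma adjusted p = 0.0861), so their signals may not be separable. ANKRD1, a target of the YAP and TEAD factors, had 10.35 and 10.36 with PTD-DRBD at 12 h, against 10.70 and 10.45 in control cells, and 10.96 and 11.20 with PTD-DRBD at 24 h, against 10.38 and 10.30 in control cells, a change of 0.96 (SE 0.16, limma adjusted p = 0.0305). It was the only one of 20 measured YAP/TEAD targets to pass. DPP6, a partner of potassium channels, gave 1.12 (SE 0.18, limma adjusted p = 0.0305) by its chosen probe, while its other 6 probes gave between −0.14 and 0.09.

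Each change was split into its arms, the 24 h minus 12 h difference of the PTD-DRBD arrays (2970 genes passed, 24.5% of those tested) and of the control arrays (1055 passed, 8.71%). The gap between these counts depended on the fit. With the main axis of replicate differences at 12 h as covariate, 1538 genes passed in the PTD-DRBD arm and 1513 in the control arm. Of the 44 genes, 16 passed in the PTD-DRBD arm only, 13 in the control arm only and 15 in both. The PTD-DRBD arm moved further for 26 and the control arm for 18. The fitted differences of the arms had opposite signs for 29, counted whatever their size (MSMO1 had −0.01 with PTD-DRBD). Opposite signs are favoured in genes picked for a difference between the arms, so this count is a description only. TPPP3, KRT34, FOSB, CCN3, MMP10, CPA4 and ACSS2 passed in the PTD-DRBD arm only. ARID5B, TENT5B, SLC2A14, SLITRK5, HEYL, TICAM2, MSMO1, NFKB2, PER2 and MTCL2, a microtubule-binding protein, passed in the control arm only, and the PTD-DRBD arms of these 10 had differences between −0.26 and 0.27. HMGCS1 was lower at 24 h with PTD-DRBD by −0.69 (SE 0.08) and higher at 24 h in control cells by 0.43 (SE 0.08).

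**Figure D3:**
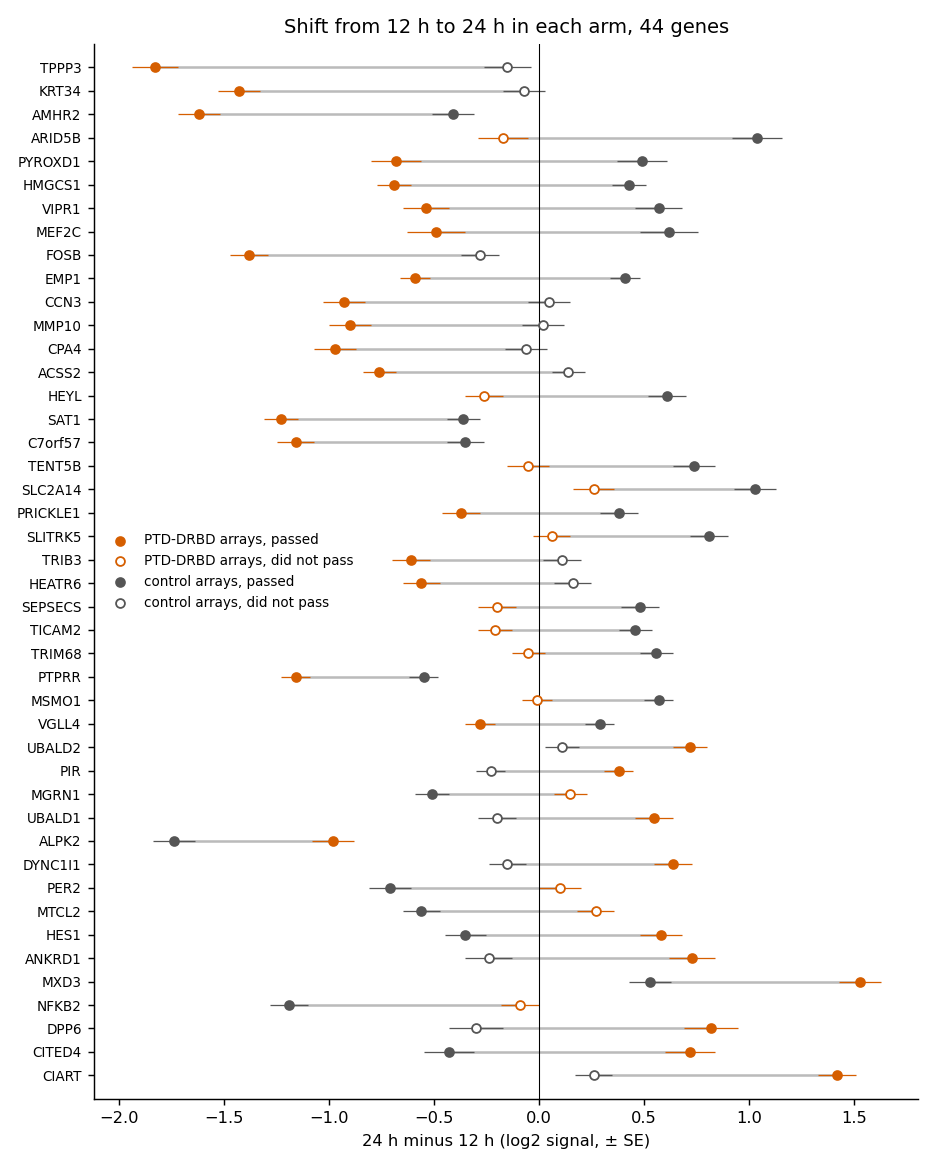
Difference of 24 h minus 12 h in log2 signal (x axis, ± SE) within the PTD-DRBD arrays (orange) and within the control arrays (grey) for the 44 genes, ordered by the change from lowest at the top, with filled points for differences that passed at adjusted p 0.05. TPPP3 and FOSB move in the PTD-DRBD arrays alone, ARID5B and NFKB2 in the control arrays alone, and HMGCS1 in both, in opposite directions.

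NFKB2 encodes the precursor p100, processed to p52, of the NF-kappaB family, which drives inflammatory and survival genes. It had log2 signals of 10.39 and 10.32 with PTD-DRBD at 12 h, against 10.69 and 10.89 in control cells. At 24 h it had 10.24 and 10.29 with PTD-DRBD, against 9.57 and 9.64 in control cells. The effect of −0.43 at 12 h was 0.66 at 24 h, a change of 1.09 (SE 0.13, limma adjusted p = 0.00572), and the control arrays moved by −1.19 (SE 0.09) against −0.09 (SE 0.09) in the PTD-DRBD arrays. Among 20 measured NF-kappaB inflammatory genes it was the only one to pass in the change, with a list median of 0.18. From 12 h to 24 h, 13 of the 20 fell with PTD-DRBD (12.5% of all genes fell) and 12 fell in control cells (4.56% of all genes). TRAF1, a signalling adaptor, fell by 2.16 with PTD-DRBD and by 2.85 in control cells, and its change of 0.70 did not pass (limma adjusted p = 0.0695). RELB, a partner of p52, had a change of 0.48 (limma adjusted p = 0.0634) and CCL2, a chemokine, of 0.63 (limma adjusted p = 0.181).

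Genes of the ATF4 stress response, which amino acid shortage and other stresses induce, held more members passing at 12 h than any other list. At 12 h 21 of 36 measured members were higher with PTD-DRBD and 1 was lower, with a median effect of 0.43, and at 24 h 5 were higher and 2 lower, with a median of 0.05. The median change was −0.35, against −0.01 over all genes, and 5 of the 36 lay above 0, and TRIB3 alone passed. TRIB3, a pseudokinase that feeds back on ATF4, had 10.23 and 10.24 with PTD-DRBD at 12 h, against 9.41 and 9.55 in control cells, and 9.64 and 9.61 with PTD-DRBD at 24 h, against 9.63 and 9.55 in control cells (change −0.72, SE 0.12, limma adjusted p = 0.037). The pass of TRIB3 was lost whichever array was left out. The amino acid transporter genes SLC7A5 and SLC6A9 had changes of −0.78 and −0.74 (limma adjusted p = 0.0546 for both) and SESN2, a stress-induced inhibitor of mTORC1, of −0.78 (limma adjusted p = 0.0941). Of all genes 3.42% were higher at 12 h and 5.87% at 24 h. Between the times, 22 members fell with PTD-DRBD (12.5% of all genes) and 4 rose (12%), while 2 fell (4.56%) and 1 rose (4.15%) in control cells. DDIT3 went against the list, with 8.93 and 8.68 with PTD-DRBD at 12 h, against 7.93 and 7.95 in control cells, and 9.15 and 9.19 with PTD-DRBD at 24 h, against 8.22 and 8.16 in control cells.

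Sterol genes held both early rises and late falls. Of 21 measured genes of cholesterol synthesis and uptake, 6 were higher with PTD-DRBD at 12 h (3.42% of all genes) and 0 lower, and at 24 h 0 were higher and 7 lower (8.15% of all genes), with median effects of 0.15 at 12 h and −0.20 at 24 h. The median change was −0.36, 3 of 21 lay above 0, and HMGCS1 and MSMO1, a sterol C4 demethylase, passed. MSMO1 had 11.01 and 10.99 with PTD-DRBD at 12 h, against 10.69 and 10.70 in control cells, and 11.02 and 10.95 with PTD-DRBD at 24 h, against 11.22 and 11.32 in control cells (change −0.58, SE 0.10, limma adjusted p = 0.0423). STARD4, a sterol carrier (−0.95, limma adjusted p = 0.0554), MVD, a mevalonate pathway enzyme (−0.86, limma adjusted p = 0.0553), and SC5D, a sterol desaturase (−0.60, limma adjusted p = 0.0546), did not pass. Between the times 9 members fell with PTD-DRBD and 1 rose (12.5% and 12% of all genes), whereas 0 fell and 6 rose in control cells (4.56% and 4.15% of all genes). Of 20 fatty acid genes, 2 were higher at 12 h and 6 lower at 24 h with PTD-DRBD, ACSS2 passed in the change, and FASN, the fatty acid synthase, had −0.84 (limma adjusted p = 0.0576).

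**Figure D4:**
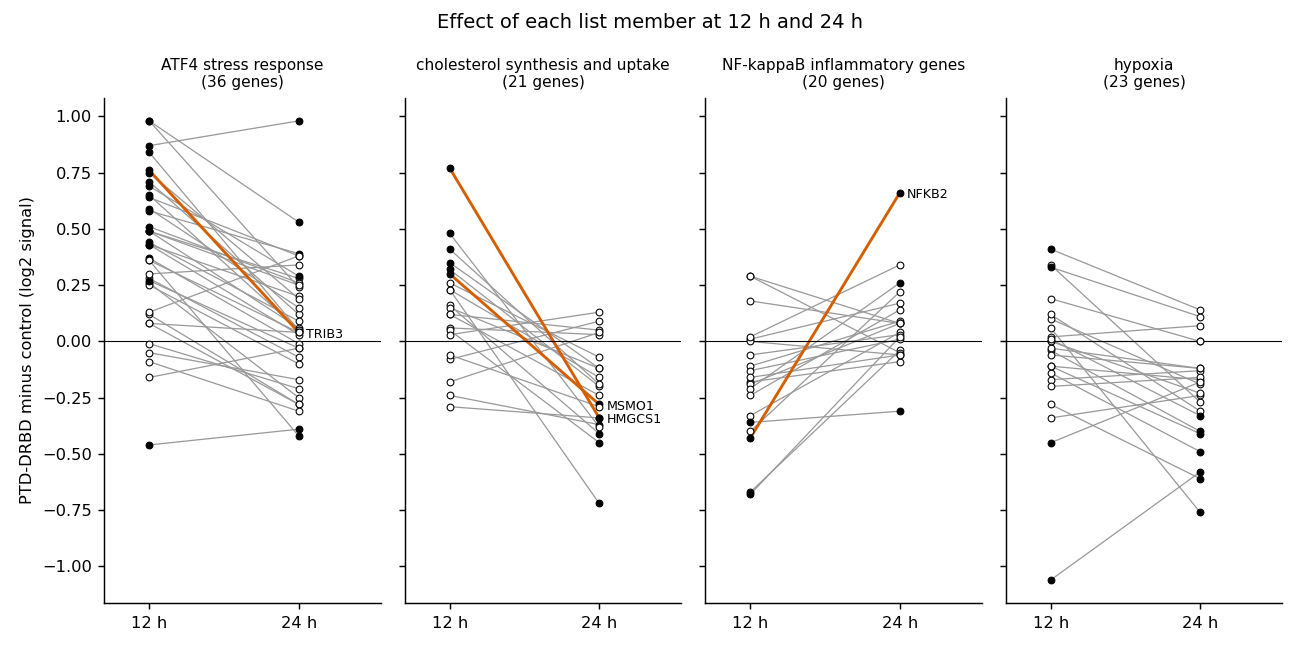
PTD-DRBD minus control in log2 signal (y axis) of each measured member of 4 gene lists at 12 h and at 24 h, joined by a line, with filled points for effects that passed and orange lines for changes that passed. Most ATF4 members stand above 0 at 12 h and near it at 24 h, most sterol genes stand above 0 at 12 h and below it at 24 h, and NFKB2 crosses upward.

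Clock genes were read as a further group because CIART and PER2 passed. The circadian clock is a loop in which CLOCK and BMAL1 activate, through E-box elements, the repressors that later inhibit them. CIART, one such repressor, had 6.23 and 6.14 with PTD-DRBD at 12 h, against 6.79 and 6.70 in control cells, and 7.62 and 7.58 with PTD-DRBD at 24 h, against 6.90 and 7.11 in control cells. It was 1.48-fold lower with PTD-DRBD at 12 h and 1.51-fold higher at 24 h, a change of 1.16 (SE 0.12, limma adjusted p = 0.00267). PER2, a core repressor, had 9.00 and 8.83 with PTD-DRBD at 12 h, against 9.20 and 9.22 in control cells, and 8.93 and 9.10 with PTD-DRBD at 24 h, against 8.51 and 8.49 in control cells (change 0.81, SE 0.14, limma adjusted p = 0.0427). These were the 2 of 17 measured clock genes that passed, with a list median of 0.03. Its sign depended on single arrays: it was −0.05 without the first PTD-DRBD array at 12 h and 0.16 without the second, −0.02 without the first control array at 12 h and 0.08 without the second, 0.09 without the second PTD-DRBD array at 24 h, and 0.00 and 0.13 without the first and second control array at 24 h. BHLHE40, a repressor of the same loop, stayed lower with PTD-DRBD at both times (−1.06 and −0.58), and NFIL3 had a change of −0.58 (limma adjusted p = 0.0566).

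The 250 bases upstream of the annotated start (RefSeq, GRCh38.p14) are shown for CIART, at chr1:150282304-150282553 on the plus strand, and PER2, at chr2:238288611-238288860 on the minus strand, because E-boxes are the elements through which this loop acts. Capitals mark the E-box CACGTG in CIART and its variant CACGTT (E′-box) in PER2, whose window held no CACGTG. Each sequence runs 5′ to 3′ on the strand of the gene.
CIART: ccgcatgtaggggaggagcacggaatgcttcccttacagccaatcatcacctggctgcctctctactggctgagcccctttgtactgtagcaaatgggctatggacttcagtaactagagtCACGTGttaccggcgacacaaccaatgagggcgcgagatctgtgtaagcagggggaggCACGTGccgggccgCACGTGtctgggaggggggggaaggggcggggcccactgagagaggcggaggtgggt
PER2: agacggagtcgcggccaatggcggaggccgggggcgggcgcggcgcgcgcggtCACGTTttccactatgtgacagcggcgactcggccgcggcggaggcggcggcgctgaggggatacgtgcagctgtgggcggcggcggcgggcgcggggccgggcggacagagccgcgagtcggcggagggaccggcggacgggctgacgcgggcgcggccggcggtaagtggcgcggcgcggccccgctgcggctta
CIART held 3 copies of CACGTG, which start 129, 71 and 57 bases before the annotated start, and PER2 held 1 copy of CACGTT, 197 bases before it. Searched on both strands, CACGTG occurred in 6.34% of all 35116 promoter windows and in 3 of the 65 windows of the 40 changed genes that matched by symbol (4.62%), and CACGTT in 4.55% of all windows and in 4 of the 65 (6.15%).

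FOSB pairs with JUN proteins on the AP-1 element, which has C or G at its centre. The looser pattern TGANTCA, which allows any base there, was therefore also searched on both strands. It occurred in 8 of the 65 windows (12.3%), against 6.57% of all windows, and the genes were ANKRD1, CPA4, EMP1, MEF2C, MMP10, MXD3, TENT5B and UBALD1. With PTD-DRBD at 12 h, MMP10, EMP1, CPA4 and TENT5B were higher, as FOSB was, while MXD3 (−0.70) and UBALD1 (−0.46) were lower. ANKRD1 (−0.22) and MEF2C (0.13) did not pass at that time. With lipofection at 12 h the effect was 2.37 for FOSB, 0.10 for MMP10, 0.13 for EMP1, 0.02 for CPA4 and 0.89 for TENT5B. At the same time it was 0.33 for MXD3, −0.05 for UBALD1, −1.03 for ANKRD1 and 0.66 for MEF2C. The windows of MMP10, at chr11:102780629-102780878 on the minus strand, and EMP1, at chr12:13196476-13196725 on the plus strand, are shown with this pattern in capitals. Whether FOSB acts on these genes was not tested.
MMP10: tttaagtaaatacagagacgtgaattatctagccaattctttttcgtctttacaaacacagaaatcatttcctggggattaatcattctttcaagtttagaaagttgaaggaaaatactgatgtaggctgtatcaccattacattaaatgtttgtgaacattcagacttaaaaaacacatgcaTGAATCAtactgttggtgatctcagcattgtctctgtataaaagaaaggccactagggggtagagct
EMP1: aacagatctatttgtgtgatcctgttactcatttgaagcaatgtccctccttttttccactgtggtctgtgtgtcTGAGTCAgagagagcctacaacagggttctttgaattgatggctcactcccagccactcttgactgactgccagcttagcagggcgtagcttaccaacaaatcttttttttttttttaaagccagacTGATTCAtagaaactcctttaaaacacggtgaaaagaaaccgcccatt
The pattern starts 67 bases before the annotated start of MMP10, and 175 and 48 bases before that of EMP1. Of these matches, only TGAGTCA in EMP1 has the C or G of the AP-1 element at its centre. The sterol regulatory element TCACNCCAC was in 1.54% of the 65 windows and 0.883% of all, and the cyclic AMP response element TGACGTCA in 0 of 65 and 1.65%. A match is a description of these letters and not a measured site.

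No immediate early gene other than FOSB passed in the change. Of 27 measured, 6 were higher and 2 lower with PTD-DRBD at 12 h (3.42% and 4.46% of all genes), and 4 were higher and 5 lower at 24 h (5.87% and 8.15% of all genes). EGR1, a serum-induced transcription factor, had 8.63 and 8.65 with PTD-DRBD at 12 h, against 7.65 and 7.61 in control cells, and 8.22 and 8.07 with PTD-DRBD at 24 h, against 7.61 and 7.55 in control cells. It was in the kept class, with a change of −0.45 (limma adjusted p = 0.0988). ZFP36, which destabilizes cytokine mRNAs, had −0.61 (limma adjusted p = 0.0576) and DUSP5, a phosphatase of ERK, −0.42 (limma adjusted p = 0.101).

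Part of the hypoxia and matrix genes passed as lower with PTD-DRBD at 24 h. Of 23 measured hypoxia genes, 2 were lower and 2 higher with PTD-DRBD at 12 h (4.46% and 3.42% of all genes), and 7 were lower and 0 higher at 24 h (8.15% and 5.87% of all genes). The median change was −0.22, and it was −0.31 and −0.13 without the first and second control array at 12 h. ANGPTL4, a secreted regulator of lipid uptake, had 11.77 and 11.72 with PTD-DRBD at 12 h, against 11.80 and 11.57 in control cells, and 11.10 and 11.23 with PTD-DRBD at 24 h, against 11.92 and 11.92 in control cells (change −0.82, limma adjusted p = 0.0514). No hypoxia gene passed in the change. Between the times 8 of the 23 rose with PTD-DRBD (12% of all genes rose), and 14 rose in control cells (4.15% of all genes). Of 29 extracellular matrix and integrin genes, 2 were lower and 1 higher at 12 h, which is near the shares over all genes, 8 were lower and 2 higher at 24 h, and MMP10 alone passed in the change. Collagen receptor subunit ITGA2 was lower with PTD-DRBD at both times (−0.35 at 12 h and −0.96 at 24 h).

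Some small noncoding RNAs, histones and subunits of the respiratory chain and ATP synthase passed as higher with PTD-DRBD at 24 h, though most members did not. Of 46 measured small noncoding RNAs, 1 was higher at 12 h and 13 at 24 h, with 0 lower at either time. Of 50 replication-dependent histone genes, 1 was higher and 2 lower at 12 h, and 8 were higher and 1 lower at 24 h. Of 75 respiratory chain and ATP synthase subunits, 0 passed at 12 h, and 8 were higher and 1 lower at 24 h, the lower one being ATP5F1A, a catalytic-core subunit of ATP synthase (−0.40, limma adjusted p = 0.0163). Over all genes 3.42% were higher at 12 h and 5.87% at 24 h. The median changes were 0.23, 0.21 and 0.17, and no member passed in the change. Leaving out the second PTD-DRBD array at 12 h gave 0.11, 0.13 and 0.10 for these lists, and leaving out the second PTD-DRBD array at 24 h gave 0.16, 0.13 and 0.14. For histones the median was also 0.13 without the second control array at 12 h. The median of the small noncoding RNAs above the control mean was 0.09 and −0.05 on the PTD-DRBD arrays at 12 h and 0.20 and 0.36 at 24 h, so the arrays of each group stood apart. The same arrays differed along the main axis of replicate differences at 12 h, with scores in SD units of 0.79 and −1.57 with PTD-DRBD and −1.31 and 0.12 in control cells at 12 h, and 0.71 and 1.46 with PTD-DRBD and −0.20 and −0.65 in control cells at 24 h. The axis was built from the 12 h replicates, so a gap between the replicates of that time was favoured by its construction. Without the PTD-DRBD arrays of lowest and highest score, an alternative chosen after seeing the data, the median changes were 0.04 for small noncoding RNAs, 0.04 for histones and 0.07 for the subunits. Of 27 proteasome genes 4 were higher at 24 h, with a median change of 0.05.

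**Figure D5:**
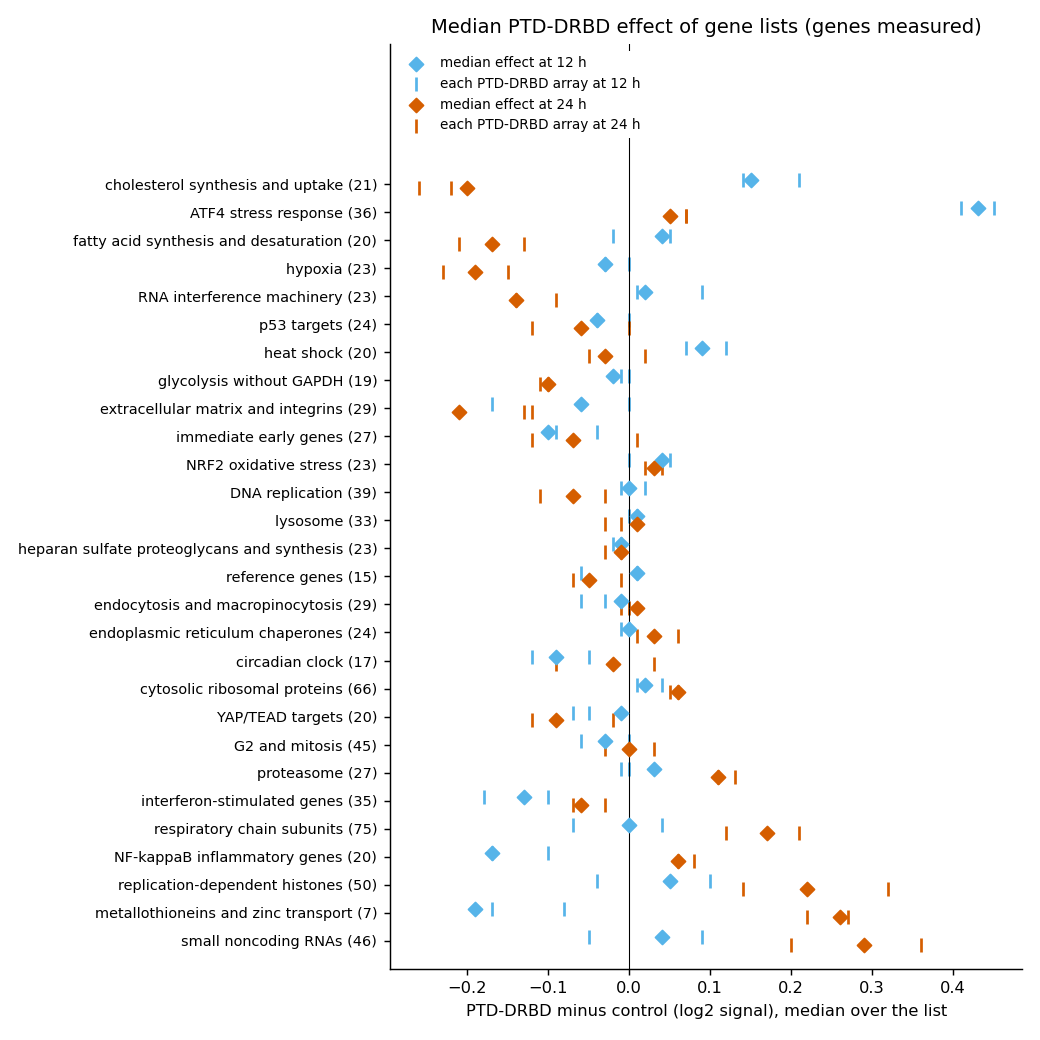
Median PTD-DRBD minus control in log2 signal (x axis) over the measured members of each gene list at 12 h (blue diamonds) and 24 h (orange diamonds), with the median of each single PTD-DRBD array as a bar, ordered by median change from lowest at the top. The ATF4 list lies at 0.43 at 12 h and 0.05 at 24 h, the cholesterol list at 0.15 and −0.20, and the small noncoding RNAs at 0.04 and 0.29.

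The median changes of the remaining lists lay between −0.14 for RNA interference machinery and 0.22 for the 7 measured metallothionein and zinc transport genes. That 0.22 was 0.13 without the second PTD-DRBD array at 24 h and 0.14 without the first control array at 24 h. PIR, in the NRF2 list, was the only other listed gene to pass. Of 35 interferon-stimulated genes 5 were lower with PTD-DRBD at 12 h (4.46% of all genes) and 1 at 24 h (8.15% of all genes). Among them was the RNA sensor gene IFIH1, at −0.57 at 12 h and −0.23 at 24 h (change 0.33, limma adjusted p = 0.154). The 15 reference genes had a median change of −0.01.

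To set the treated arm beside another route, the 24 h minus 12 h difference with PTD-DRBD was tested against that with lipofection, which uses no control array. In this test 454 genes passed (3.75%), 204 higher (1.68%) and 250 lower (2.06%), and 15 of the 44 were among them, though both tests use the PTD-DRBD arrays. AMHR2 differed by −1.63 (SE 0.15, limma adjusted p = 0.000382), CCN3 by −0.97 (limma adjusted p = 0.00832), EMP1 by −0.47 (limma adjusted p = 0.036) and DYNC1I1 by 1.51 (limma adjusted p = 0.000286). CIART (0.18, SE 0.12, limma adjusted p = 0.449), NFKB2 (−0.03, SE 0.13, limma adjusted p = 0.919) and HMGCS1 (0.10, SE 0.12, limma adjusted p = 0.679) did not pass. ANKRD1 did, in the direction opposite to its change (−1.04, SE 0.16, limma adjusted p = 0.00777). The lipofection effects, which share the control arrays, were −0.52 at 12 h and 0.60 at 24 h for NFKB2, 0.18 and 1.15 for CIART, and −1.03 and 0.98 for ANKRD1. With lipofection, the change of the effect with time was −1.22 for HMGCS1, −0.52 for EMP1, 1.13 for NFKB2, 0.98 for CIART and 2.01 for ANKRD1. Each of these passed, in the same direction as with PTD-DRBD. For DYNC1I1 it passed in the opposite direction (−0.72), and for AMHR2 (0.42) and CCN3 (−0.01) it did not pass.

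With a threshold of 1.6-fold, the authors' deposited table lists 45 probes with PTD-DRBD at 12 h, 18 higher and 27 lower, and 55 at 24 h, 10 higher and 45 lower. It lists 16 at both times, 35.6% of the first list and 29.1% of the second, all with the same sign. Of the 29 listed at 12 h alone, 10 belong to genes that passed in the change, including HES1, CCN3, CITED4, HMGCS1 and EMP1, and of the 39 listed at 24 h alone 2 do, ANKRD1 and MEF2C. In the authors' deposited table HMGCS1 had a fold of 1.6843 at 12 h and TPPP3 of 2.0917.

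Of the 44 genes, 10 passed with each of the 8 arrays left out in turn: TPPP3, KRT34, AMHR2, HMGCS1, FOSB, EMP1, ACSS2, SAT1, NFKB2 and CIART. They were picked out after these values were seen. Among the PTD-DRBD and control groups, TPPP3, KRT34 and FOSB had met the detection filter only through PTD-DRBD at 12 h. With the 2 most extreme PTD-DRBD arrays left out together, 1 gene passed in all.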

How the data were processed

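Raw Illumina probe intensities with detection p-values, read with BeadStudio per the submitters' processing notes, came from the deposited table of 48701 probes. The deposited normalized intensities and the authors' signed score (a fold of at least 1.6) served as alternative and description, and how the authors normalized was not found in the labels. Here neqc from limma 3.58.1 (R 4.3.3) corrected the raw intensities for background, normalized them by quantiles and gave log2 values, with an offset of 16. Probes with detection p under 0.05 on both arrays of a group were kept (19631, 40.3%), and the brightest probe stood for each of 12117 genes. The platform annotation gave 1 gene for 23687 probes, several for 35 and none for 24979, and 5588 kept probes without 1 gene were left out. Of the gene identifiers, 23651 matched the reference table and 36 did not.

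One model on all 12 arrays gave a mean for each of 6 groups (residual degrees of freedom 6, prior 5.3). Each comparison had its own Benjamini-Hochberg adjustment, with a threshold of 0.05. A fold against a group with no detected array is a lower bound, set against either the lowest signal among detected probes or the gene's own signal, whichever was higher on each array. With 2 arrays a group, their number limits the precision. The script was tested on simulated data. The 2 columns of lipofection folds in the authors' table were not used, and which arrays its folds were set against is not stated.

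Named were GAPDH, the 15 largest changes each way that passed, up to 5 each way among genes below detection in a group, the 6 largest of each class, and up to 4 members of each list that passed in any contrast, with 1 clone-type name passed over. Members of 30 lists and the lists themselves were chosen with earlier results of these data known. TICAM2, MSMO1, VGLL4 and other changed genes outside this rule were named after their values were seen. Alternatives covered background, normalization, filter, probe choice, moderation, thresholds, the replicate axis (46.1% of the sum of squares of replicate differences at 12 h) and each array left out, which leaves a lone array assumed to vary like the other groups.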

Additional observations from a re-analysis of the deposited data

Results flagged for a closer look

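Each gene here had a PTD-DRBD effect at 24 h that differed from that at 12 h by the limma test of the difference itself. The values are fitted log2 changes, 24 h effect minus 12 h effect. Groups of 2 arrays are too small for a test of outlying arrays.

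Among genes whose 24 h minus 12 h difference also differed between PTD-DRBD and lipofection, the change was −1.68 for TPPP3, −1.35 for KRT34, −1.21 for AMHR2, −1.11 for VIPR1, −1.0 for EMP1, −0.98 for CCN3, −0.92 for MMP10, −0.90 for CPA4 and −0.86 for SAT1. It was 1.0 for MXD3, 0.96 for ANKRD1, 0.79 for DYNC1I1 and 0.61 for UBALD2. For TPPP3, KRT34, AMHR2, MMP10 and CPA4 at least 1 group was below detection, so the fitted value is not a measured fold.

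Among genes for which that difference between routes did not pass, the change was −1.21 for ARID5B, −1.17 for PYROXD1, −1.11 for HMGCS1, −1.10 for MEF2C, −1.09 for FOSB (below detection at 24 h), −0.90 for ACSS2, −0.87 for HEYL, −0.80 for TENT5B, −0.78 for SLC2A14, −0.76 for PRICKLE1, −0.75 for SLITRK5 and −0.72 for TRIB3. It was 1.16 for CIART, 1.15 for CITED4, 1.12 for DPP6, 1.09 for NFKB2, 0.93 for HES1, 0.82 for MTCL2, 0.81 for PER2, 0.76 for ALPK2, 0.74 for UBALD1, 0.66 for MGRN1 and 0.61 for PIR.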

How the results depend on the processing

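No paired analysis was possible because the labels number the samples through the series and give the groups no shared replicate numbers. All 44 genes (35 of 35 where only 35 were tested) kept the direction of their change in each fit that was run by the chosen probe. They had been picked for large changes on the same arrays, so a kept direction was favoured by the choice. The cause of the shifts in counts was not tested, apart from thresholds and arrays left out, which change them by construction.

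The change with time passed for 22 genes on the 8 arrays alone (19 shared with the 44), 284 without background correction (44 shared), 273 on the authors' normalized values (43 shared), 68 with cyclic loess, 103 with detection on all 8 arrays, 294 with an intensity trend and robust moderation, 335 at adjusted p under 0.10, and 148 at 1.6-fold with no test. The reversed class held 8, 31, 32 and 32 genes on the 8 arrays alone, without background correction, on the authors' values and with the trend. With the axis as covariate, 374 genes passed at 24 h, 1538 in the PTD-DRBD arm and 1513 in the control arm. The classes then held 1221 (early only), 175 (late only), 191 (kept) and 8 (reversed), and 30 genes passed in the change. Without both extreme PTD-DRBD arrays, the counts were 1 for the change, 424 at 12 h, 162 at 24 h and 242 in the PTD-DRBD arm, with classes of 344, 82, 79 and 1. With 1.6-fold and the test they were 85 at 12 h, 122 at 24 h, 245 in the PTD-DRBD arm and 153 in the control arm, with classes of 61, 98, 24 and 0, and with 1.6-fold alone 86, 124, 245 and 155, with classes of 62, 100, 24 and 0. At adjusted p under 0.10 they were 1635 at 12 h, 2871 at 24 h and 1663 in the control arm, with classes of 970, 2206, 605 and 60. With 1 array left out, the change passed for 10 to 83 genes, the effect at 12 h for 309 to 865 and at 24 h for 179 to 1723, the PTD-DRBD arm for 1022 to 2841 and the control arm for 399 to 1062, and the classes held 173 to 764 (early only), 78 to 1590 (late only), 99 to 220 (kept) and 2 to 16 (reversed). By another probe of the gene, the sign turned for the change of DPP6 (−0.14) and for effects of ACSS2 at 24 h (0.14), RNF217 at 12 h (0.25) and 24 h (0.05), DICER1 at 24 h (0.07) and TNRC6A at 12 h (−0.01) and 24 h (−0.14). For single named genes, 968 values over all fits lost their pass, 2694 did not change side and 2 gained a pass.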
